A study of Rattus norvegicus with 12 samples.

Results

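The regions described here are stretches of the rat genome that were open to the ATAC-seq enzyme, as judged by a called peak, in 6, 7 or 8 of 12 amygdala libraries. They were found by merging the peaks of all 12 lists wherever peaks overlapped by at least 1 bp, and by counting the libraries with a peak in each merged region. Of 118874 merged regions, 10966 met this rule, which is 9.22% of the regions and 20.9 Mb of sequence. The rule used the presence of peaks, so the number of libraries, and the width and score that go with it, are given as descriptions without a test. The rule did not use treatment, so comparisons between treatments were tested.

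In ATAC-seq, a transposase inserts sequencing adapters into DNA that is not wrapped tightly around nucleosomes, and places with many insertions are called as peaks. Open regions include promoters, many of which are open in most cells of a tissue, and distal elements such as enhancers, which are often open in some cell types and closed in others. The amygdala, a brain region central to fear and anxiety, is a mixture of neurons, glia and vascular cells, and a region open in a small fraction of its cells gives a weaker peak than one open in all of them. In whole tissue, fewer open cells and less opening per cell cannot be told apart.

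All 12 libraries came from adult male Sprague Dawley rats described as wild type, 6 injected intraperitoneally with saline (Control 1 to 6) and 6 with ethanol at 1 g/kg (Ethanol 1 to 6). Amygdala tissue was taken 1 h later, frozen and tagmented with Nextera reagents. The comparison asks whether acute ethanol altered which regions were open. One peak list was analysed per library, with a score for each peak and no read counts, so sequencing depth is unknown and the number of peaks per library stands in for it. The tissue label was not checked against marker genes here.

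The lists held 50370 to 75847 peaks, 730912 in all, of which the Ethanol libraries contributed 51.4%. The 5 long lists each had at least 66785 peaks (Control 5 and 6, Ethanol 1, 4 and 6), and the other 7 held at most 58645. No sequencing batch or date was given in the labels.

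The regions listed in 6, 7 or 8 libraries lay in the trough of a U-shaped distribution. Single-library regions numbered 41650 and regions listed in all 12 numbered 21640, against 4058 listed in 6 libraries, 3557 in 7 and 3351 in 8. Just outside the rule were 4849 regions listed in 5 libraries and 3190 listed in 9. The 10966 regions held 80178 peaks, 10.97% of all peaks, and covered 9.71% of the merged length.

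They were of intermediate width. Their median width was 1622 bp, with 10th and 90th percentiles of 886 and 3355 bp, compared with 558 bp for single-library regions and 3100 bp for regions listed in all 12. The median rose from 1540.5 bp at 6 libraries to 1621 bp at 7 and 1730 bp at 8, between 1408 bp at 5 and 1840.5 bp at 9. A library that listed one of the regions covered a median of 59.0% of it, and the peaks themselves had a median width of 860 bp, against 1607 bp for peaks in regions listed in all 12. In 94.9% of detections the region held a single peak of that library.

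**Figure D1:**
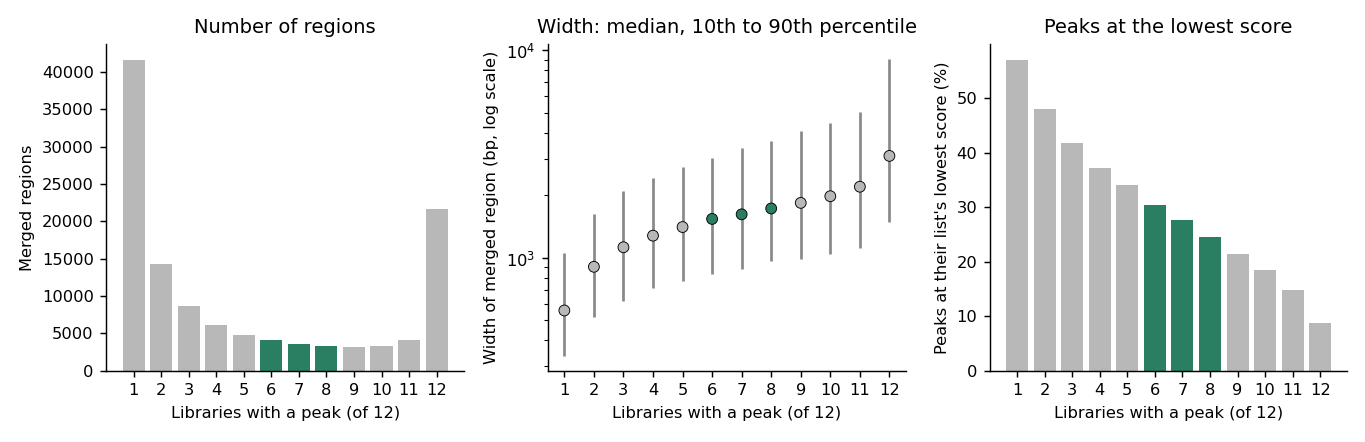
Merged regions by the number of libraries with a peak, from 1 to 12 (green, 6, 7 or 8): the number of regions, the width in bp on a log scale (point, median; line, 10th to 90th percentile), and the percentage of peaks at the lowest score of their own list. The green classes fall in the trough of the first panel, and the lowest-score share falls from 57.1% at 1 library to 8.70% at 12.

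Their peaks ranked low, but not lowest, within each list. Scores were turned into a percentile within the library, 100 being the highest. The median percentile of peaks in the 10966 regions was 34.1, with quartiles of 10.8 and 49.4, against 72.6 in regions listed in all 12 and 10.8 in single-library regions. It was 28.9 for 6 libraries, 34.1 for 7 and 37.6 for 8, with 26.9 at 5 and 38.8 at 9 just outside the rule. Peaks at the lowest score of their list made up 27.4% of those in the 10966 regions, 8.70% of those in regions listed in all 12, and 57.1% of those in single-library regions. The order held in each library: the median for the 10966 regions, 25.1 in Control 2 to 42.7 in Ethanol 6, lay below that of regions listed in all 12 and above that of single-library regions in 12 of 12 libraries.

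**Figure D2:**
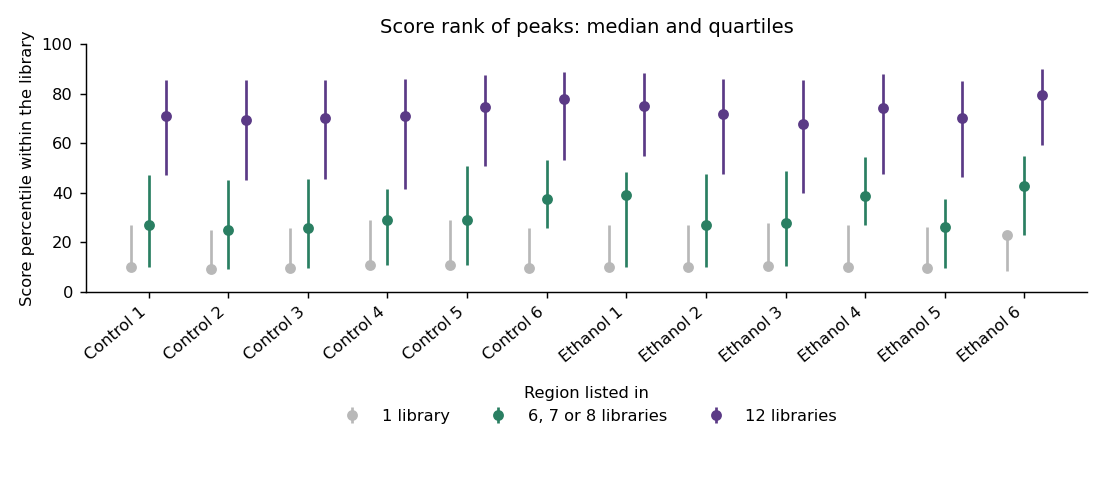
Score percentile within the library (vertical axis, 100 highest) of peaks in regions listed in 1 library (grey), in 6, 7 or 8 (green) and in 12 (purple), for each of the 12 libraries. Points are medians and lines span the quartiles. The green medians, 25.1 to 42.7, lie between the grey and the purple ones in each library.

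A minority of the regions scored high where they were listed. The median percentile over the listing libraries was at least 50 in 1201 of the 10966 (10.95%), compared with 95.4% of regions listed in all 12. It was at least 70 in 12 regions and at least 80 in 3. The 1201 were narrower than the other regions, with a median of 1399 bp against 1657 bp, and farther from a region listed in all 12, with a median of 35.0 kb against 21.8 kb. This subset was set apart after the scores were seen and is given without a test.

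Most of the regions lay well away from the constantly open ones. The median distance to the nearest region listed in all 12 was 22.9 kb, with quartiles of 6.61 and 67.2 kb. That was close to the 20.995 kb of single-library regions, the 22.8 kb at 5 libraries and the 21.9 kb at 9, whereas regions listed in all 12 lay a median of 16.0 kb from the next of their own kind. Within 1 kb of such a region lay 8.78% of the 10966, and beyond 100 kb lay 17.9%. Spacing among the 10966 themselves was wide, with a median of 43.0 kb to the nearest other one and 445 (4.06%) within 1 kb. Close neighbours were listed by much the same number of shared libraries as distant ones: a region and its nearest neighbour had the same status in a mean of 6.93 of 12 libraries within 1 kb and 6.75 of 12 beyond 100 kb.

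Across the autosomes they made up from 8.17% on chromosome 10 to 10.7% on chromosome 11 of the merged regions. On the X chromosome they were 123 of 1435 regions (8.57%), beside 9.23% on the autosomes together, and on the Y chromosome 2 of 31. The widest of the regions, at chr5:128690323-128700980, spanned 10658 bp and was listed in 4 Ethanol and 4 Control libraries. The next widest, at chr1:79953668-79963024 and chr4:147819515-147828336, spanned 9357 and 8822 bp, each in 5 Ethanol and 3 Control libraries. Farthest from any region listed in all 12 were a pair on the X chromosome. One, at chrX:101256737-101257593, was 3235 kb away and listed in 5 Ethanol and 2 Control libraries. The other, at chrX:92130228-92131277, was 2930 kb away and listed in 3 of each.

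Whether a library listed one of these regions went with how many peaks it had. Among Control libraries the share of the 10966 regions listed was lowest at 45.4%, with a median of 48.7%, and highest at 78.4% (Control 6). Among Ethanol libraries it was lowest at 40.4% (Ethanol 3), with a median of 61.3%, and highest at 85.6% (Ethanol 6). The 5 long lists held a mean of 73.5% of the regions and the other 7 a mean of 46.5%, and the classes did not overlap: the lowest long list held 64.8% and the highest other list 53.3%. The gap was present for regions in 6 libraries (66.2% against 38.4%), in 7 (74.5% against 46.8%) and in 8 (81.4% against 56.1%).

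Over the 12 libraries the share followed the number of peaks with Pearson's r = 0.988 and Spearman's rho = 0.951. Both measures come from the lists that chose the regions, and a longer list holds more regions, so these values are descriptions without a test. Without the libraries farthest from the median, Ethanol 6 and Control 6, r was 0.980. It was 0.995 within the 6 Control and 0.985 within the 6 Ethanol libraries. List lengths fell into separate clusters, and within the 7 shorter lists r was 0.794 and rho 0.75. The median score percentile of the peaks also rose with list length, with r = 0.915 and rho = 0.895. Without Ethanol 6 and Control 6 that r was 0.851, and in the 7 shorter lists it was 0.431.

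**Figure D3:**
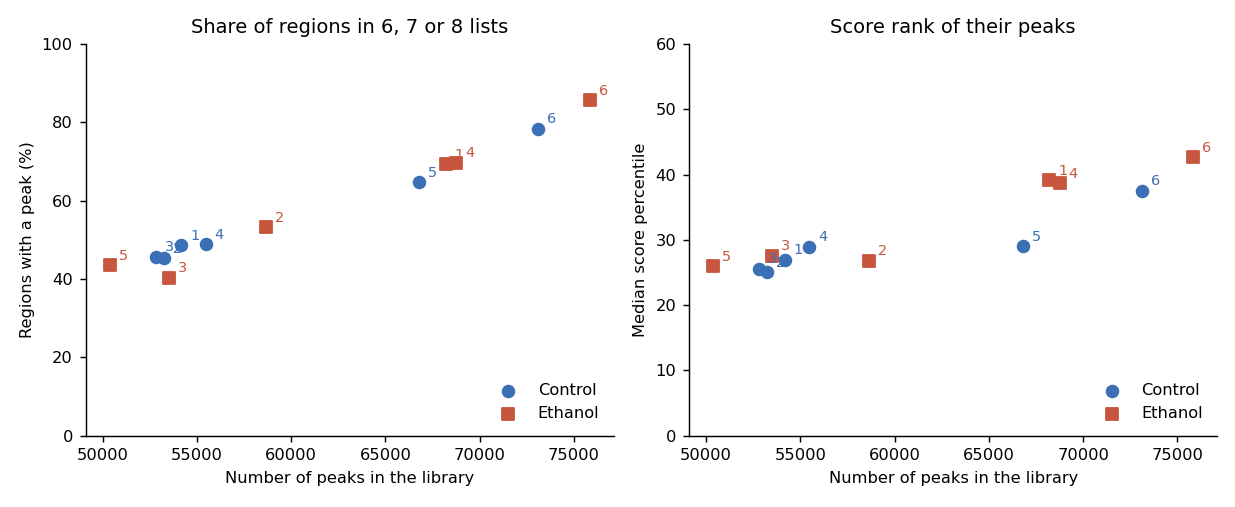
Each of the 12 libraries (blue circles, Control; red squares, Ethanol; numbers are replicates) by its number of peaks (horizontal axis). Left, the percentage of the 10966 regions with a peak, from 40.4% to 85.6%; right, the median score percentile of those peaks, from 25.1 to 42.7. Libraries of both treatments lie along one rising band, with the 5 long lists apart at the right.

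The sets of listing libraries varied widely, and those made up of the longest lists were among the commonest. Exactly the 6, 7 or 8 longest lists held 206 of the regions (1.88%), and 2101 (19.2%) were listed in all 5 long ones. Whether list length alone would give such a spread of sets was not tested. Both Control 6 and Ethanol 6 listed 7343 of them (67.0%), neither listed 330 (3.01%), and Ethanol 6, the longest list, lacked 1581 (14.4%). Of the 2211 sets of libraries that 6, 7 or 8 of 12 allow, 1875 were seen, 415 of them for a single region. The commonest set was exactly the 6 longest lists, with 75 regions absent from Control 1 to 4, Ethanol 3 and Ethanol 5. The sets of exactly the 8 and the 7 longest lists held 66 and 65 regions. Together the 20 commonest sets held 1025 (9.35%).

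Libraries of one treatment shared about as many of these regions with each other as with the other treatment, and the sign of the small difference was not stable. The Jaccard index, regions listed by both libraries divided by regions listed by either, averaged 0.369 over the 30 pairs within treatments and 0.370 over the 36 pairs between them, a difference of -0.00136 (one-sided exact permutation test, p = 0.435). The difference was 0.00408 at equal list length (one-sided exact permutation p = 0.182), and it was also above 0 when Control 2, 3, 5 or 6 was left out, at most 0.0115 (without Control 6). The index of single pairs ran from 0.219 (Control 4 with Ethanol 3) to 0.690 (Control 6 with Ethanol 6). Pairs of long lists averaged 0.570, pairs of shorter lists 0.272 and mixed pairs 0.370, so the index followed list length.

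Differences between treatments in per-library totals were within the spread of the libraries. Ethanol libraries listed 60.3% ± 17.5 of the regions and Control libraries 55.3% ± 13.4 (SD, n = 6 each), a difference of 5.01 percentage points (two-sided exact permutation p = 0.593). The length in peaks within the regions was 7298 ± 3186 kb against 6045 ± 2381 kb (SD, n = 6 each), a difference of 1253 kb (exact permutation p = 0.483). The median score percentile was 33.5 ± 7.47 against 28.8 ± 4.56 (SD, n = 6 each), a difference of 4.61 (exact permutation p = 0.223), and 3 of 6 Ethanol libraries lay above each Control library. The direction of this last difference turned at equal list length, to -0.393 with ranks from the full lists (exact permutation p = 0.933) and to -3.69 with ranks set anew (exact permutation p = 0.0390). Adjusted over the 3 full-list tests of share, length and score, p was 0.593 for each (exact permutation). The equal-length tests were not part of that adjustment. Among the long lists the mean share listed was 74.9% in 3 Ethanol and 71.6% in 2 Control libraries, and among the others it was 45.7% in 3 Ethanol and 47.1% in 4 Control libraries. At equal list length, with the rule applied anew, the difference in share was 1.502 points and that in length 710.0 kb (exact permutation p = 0.693 and 0.403). The share listed there ran from 48.0% to 70.9% and still followed the original number of peaks (r = 0.823). Cutting the lists to equal length thus did not remove that dependence. In the full lists without Ethanol 6, the share and length differences were -0.0419 points and 132 kb, and without Control 6 they were 9.63 points and 2107 kb. Within the long lists the difference in share was 3.29 points (exact permutation p = 0.7). With 3 against 2 libraries that test cannot fall under 0.05, whatever the values. Within the other lists the difference in share was -1.40 points (exact permutation p = 0.714).

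Region by region, more regions leaned to Ethanol than to Control, as they did over all merged regions. Of all detections in the 10966 regions, 39677 were in Ethanol and 36378 in Control libraries, so 52.2% were Ethanol, beside 51.5% over all merged regions. More Ethanol than Control libraries listed 4498 regions (41.0%), more Control libraries listed 3073 (28.0%), and 3395 were listed equally. Over all merged regions the shares were 38.8% and 29.5%, but these include the 21640 listed in all 12, which can only be equal. Over regions listed in 2 to 5 libraries the shares were 41.1% and 27.1%, and over those in 9 to 11 they were 44.2% and 38.2%. The Ethanol share of detections was 54.6% in 2 to 5 libraries and 50.5% in 9 to 11. The most uneven splits were few. Of the regions in 6 libraries, 11 were listed in all 6 Ethanol and no Control library and 3 the other way round. Of those in 7 libraries, 41 were listed in all 6 Ethanol libraries and 1 Control library, and 13 in all 6 Control libraries and 1 Ethanol library.

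No region passed Fisher's exact test after Benjamini-Hochberg adjustment over the 77224 regions listed in at least 2 libraries (percent called 0), and the smallest adjusted p among the 10966 was 1. The smallest Fisher's exact p that 6 against 6 libraries allow is 0.00216, reached by 11 and 3 regions. It can pass adjustment over 77224 regions only if very many reach it. The lack of adjusted calls therefore does not show that no region differed. At an unadjusted p under 0.05, 68 of the 10966 were called (0.620%), beside 148 of all tested (0.192%). Of these, 52 were listed more in Ethanol (0.474%, beside 0.148% of all tested) and 16 more in Control (0.146%, beside 0.044%). The higher share among the 10966 is set by their counts, since only regions listed in 5, 6 or 7 libraries can split unevenly enough to reach that p. The seventh library was often a long list: Control 6 was the single Control library in 17 of the 41 Ethanol-leaning regions, and Ethanol 1 the single Ethanol library in 7 of the 13 Control-leaning ones.

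The lean to Ethanol moved with list length and with single libraries. When each list was cut to its 50370 highest-scoring peaks and the same 10966 regions were read again, 57 were called toward Ethanol and 35 toward Control, 61.96% toward Ethanol instead of 76.5%. Without Ethanol 6, the longest list, 56 were called toward Ethanol and 88 toward Control, and without Control 6, 201 and 21. With 5 libraries against 6, splits can pass that 6 against 6 does not allow, so these counts compare with each other and not with 68. Calls over all tested regions were not counted for the cut lists or with a library left out.

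**Figure D4:**
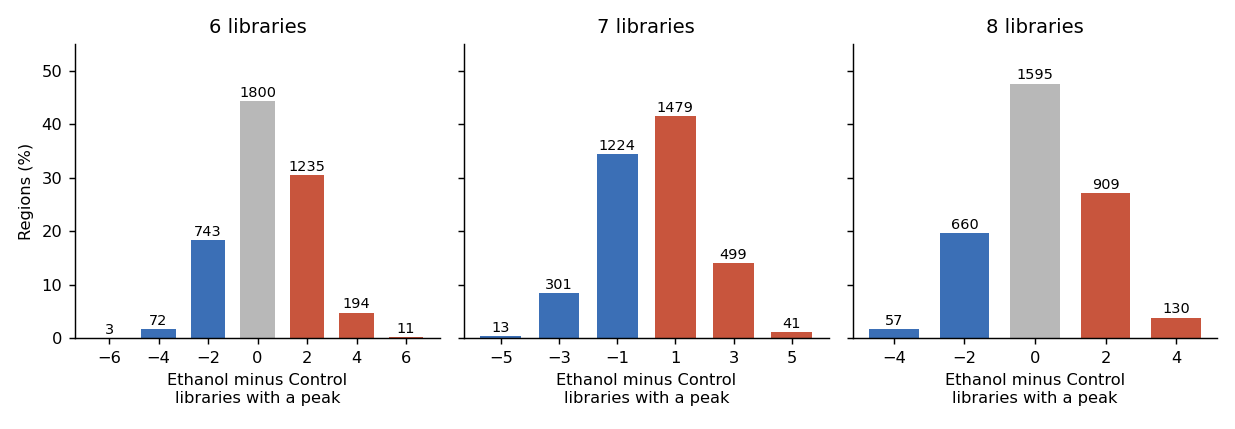
Regions listed in 6, 7 and 8 libraries by the number of Ethanol minus Control libraries with a peak. Bars give the percentage of the regions in that panel and the numbers above them the regions (red, more Ethanol; blue, more Control; grey, equal). Bars on the Ethanol side are taller at each matching distance from 0, and the outermost hold 11 and 3 regions at 6 libraries.

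The 52 Ethanol-leaning regions had a median width of 1704.5 bp (471 to 4051 bp) and the 16 Control-leaning ones 1517 bp (632 to 2732 bp). Their mean score percentiles, averaged over the listing libraries, had medians of 36.0 and 32.1, and 4 and 1 of them reached 50. The regions with the highest mean percentile in each direction are described next. They were chosen for their score, so their scores and their place in the higher-scoring 50% of lists are descriptions without a test. None passes the adjusted test, which these library numbers leave little room to pass.

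The highest of them lay at the promoter of Psma6, which encodes an alpha subunit of the proteasome, the complex that degrades proteins tagged with ubiquitin. This region, chr6:76175485-76176788 in Rnor_6.0 coordinates, was annotated by the study to the Psma6 promoter and gene body. All 6 Ethanol libraries listed it, with 771, 911.5 and 1056 bp in peaks (lowest, median, highest) and score percentiles of 54.3, 64.8 and 79.96. Of the Control libraries only Control 1 did, with 772 bp and a percentile of 26.9. The single Control value thus lay inside the Ethanol range in length and below it in score (Fisher's exact p for listing = 0.0152, unadjusted; adjusted p = 1). Among the higher-scoring 50% of each list the region remained in 6 Ethanol and 0 Control libraries. It was the only one of 30 promoter loci listed by the study to be in 6, 7 or 8 libraries: 18 were listed in all 12, 5 in 9 to 11 and 6 in fewer than 6. The study chose these loci on the same animals, so they are not independent of the treatment.

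Ptprj encodes a receptor-type tyrosine phosphatase. The region in its gene body, chr3:79314824-79317279, was listed in 6 of 6 Ethanol libraries with 1065, 1163 and 2439 bp in peaks (lowest, median, highest) and in no Control library (Fisher's exact p = 0.00216, unadjusted; adjusted p = 1). Its score percentile in those libraries ran from 26.8 to 79.96, and 4 of the 6 kept it among their higher-scoring 50%. The 2 further Ethanol-leaning regions named by the rule shared Control 6 as their only Control library. At chr14:83720880-83722011, Ethanol libraries held 526, 740 and 1119 bp and Control 6 held 792 bp. At chr8:49942538-49945565, Ethanol libraries held 485, 1065.5 and 2568 bp and Control 6 held 2233 bp. In both regions the Control 6 length lay within the Ethanol range. Its score percentile did so on chromosome 14 (46.4, Ethanol 37.6 to 82.96), whereas on chromosome 8 it was above each Ethanol library (68.8, Ethanol 26.7 to 59.4). Among the higher-scoring 50% of each list, 4 Ethanol and 0 Control libraries kept the chromosome 14 region, and 3 Ethanol and 1 Control kept the chromosome 8 region. At equal list length the latter was in 5 Ethanol libraries and 1 Control library, a split that does not reach 0.05 (Fisher's exact p = 0.0801).

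In the opposite direction, the highest-scoring region was chr3:123017732-123020200. All 6 Control libraries listed it, with 685, 1103.5 and 1535 bp in peaks, and Ethanol 1 alone of the Ethanol libraries, with 2160 bp. The 3 others were also listed in all 6 Control libraries and 1 Ethanol library. At chr2:45795958-45797991 the Control values were 768, 1079 and 2024 bp and Ethanol 1 held 1351 bp. At chr19:60394401-60396122 they were 511, 834.5 and 1722 bp and Ethanol 2 held 1332 bp. At chr4:56554288-56555131 they were 491, 606 and 820 bp and Ethanol 1 held 777 bp. In 3 of the 4 the lone Ethanol length lay inside the Control range, and at chr3 it lay above it. The lone Ethanol score percentile lay inside the Control range in 3 of the 4 as well, but on chromosome 2 it was above each Control library (67.8, Control 9.25 to 61.4). Among the higher-scoring 50% of each list the chromosome 3 region was kept in 5 Control and 0 Ethanol libraries, chromosome 2 in 3 and 1, chromosome 19 in 3 and 0, and chromosome 4 in 2 and 1. At equal list length the last 3 were each in 5 Control libraries and 1 Ethanol library (Fisher's exact p = 0.0801).

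The study's annotation was looked up for 18 of the 52 Ethanol-leaning and 3 of the 16 Control-leaning regions, of which 9 and 1 lay in gene bodies. The rest were not looked up, so these counts do not compare the directions and the genes named are a partial list. These genes are named after their values were seen. Besides Psma6 and Ptprj, Ethanol-leaning regions lay in genes that included Tfb1m (a mitochondrial ribosomal RNA methyltransferase), Sgms1 (a sphingomyelin synthase), Il6r (the interleukin-6 receptor), Chmp4b (a component of the ESCRT membrane-scission machinery) and Tbc1d4 (a Rab GTPase-activating protein). A further Ethanol-leaning one, chr18:15538400-15539473, was annotated to both Mapre2, a microtubule end-binding protein, and Ttr, the thyroid hormone carrier transthyretin, made in brain mainly by the choroid plexus. It was listed in 6 Ethanol and 0 Control libraries, with a mean score percentile of 48.1. Other genes typical of choroid plexus were not looked up, and whether choroid plexus content differed between dissections was not tested. The one Control-leaning gene body was that of Megf11, a transmembrane protein with EGF-like repeats.

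The 3 regions with the highest median percentile shared a different pattern: each was listed in Control 1 to 5, was absent from Control 6, and was listed in 1 or 2 Ethanol libraries. The narrow region chr2:114565347-114565766, 420 bp wide, had percentiles of 86.1 to 94.7 in Control 1 to 5, 39.1 in Ethanol 1 and 8.37 in Ethanol 6. In the gene body of Ppp2r2b, a regulatory subunit of protein phosphatase 2A, the region chr18:37041315-37041866 had percentiles of 71.2 to 89.8 in Control 1 to 5 and 9.90 in Ethanol 1. In the gene body of Ppp3ca, the catalytic subunit of the calcium-dependent phosphatase calcineurin, the region chr2:242007659-242009097 had percentiles of 73.0 to 84.6 in Control 1 to 5 and 62.9 in Ethanol 6. In all 3 the Control scores lay above each Ethanol score, but Control 6 had no peak. Their Fisher's exact p values were 0.242, 0.0801 and 0.0801 (unadjusted), since the test reads presence and not score. They were chosen for their score, so the score difference was not tested.

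**Figure D5:**
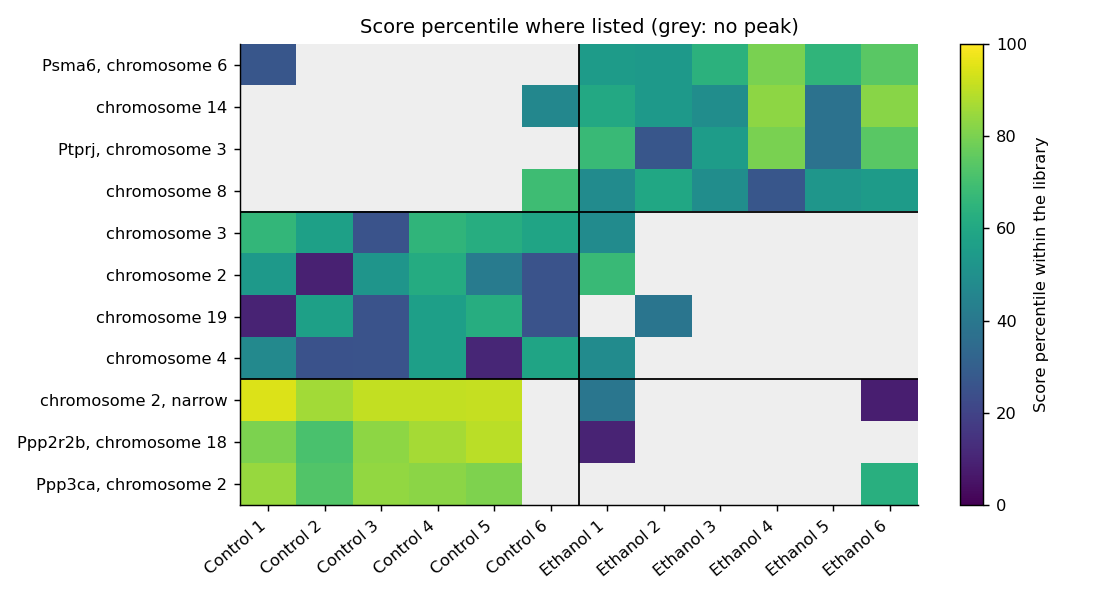
Score percentile within the library (colour scale, 0 to 100) of 11 regions (vertical axis, by annotated gene and chromosome) in each of the 12 libraries (horizontal axis). Grey marks no peak. The upper block holds Ethanol-leaning regions, the middle block Control-leaning ones and the lower block the 3 with the highest median percentile, which are bright in Control 1 to 5 and grey in Control 6.

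On chromosome 15 between 29 and 33 Mb, a stretch picked from earlier results of these data, 48 of 360 merged regions (13.3%) were listed in 6, 7 or 8 libraries. Over all merged regions that share was 9.22%. Control libraries listed 5, 16.5 and 32 of the 48 (lowest, median, highest) and Ethanol libraries 27, 40 and 47. More Ethanol than Control libraries listed 43 of them, more Control libraries listed 4, and 3 reached an unadjusted Fisher's exact p under 0.05. Over the 10966 regions, 41.0% leaned to Ethanol, 28.0% leaned to Control and 0.620% reached that p, beside 0.192% of all regions tested. In the first 6 Mb of chromosome 20, by comparison, 54 of 415 were in 6, 7 or 8 libraries, 21 of them leaning to Ethanol and 16 to Control. The libraries of the chromosome 15 stretch overlapped between treatments by their ranges, and no test was made because the stretch was chosen on these samples.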

How the data were processed

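Amygdala ATAC-seq of 12 rats, 6 Control and 6 Ethanol, was analysed from 1 peak list per library. The score of each peak is the authors' deposited value. How it was computed and how peaks were filtered is not given in the sources used here, and it is at least 5 in each list. The submitters' processing notes name the build Rnor_6.0 and BWA, MACS2 2.1.1, bedtools 2.27.1, featureCounts 1.5.0 and edgeR, without their roles. Read counts were not analysed here, so depth is unknown and its precision cannot be given. Groups and replicate numbers came from titles and treatment labels.

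Peaks were merged at 1 bp overlap (Python 3.11.15, numpy 2.4.6, pandas 2.3.3, scipy 1.17.1; checked against bedtools 2.31.1). Scores were ranked within a library, ties averaged. Treatment was compared by exact permutation over the 924 assignments of 6 of 12 libraries (smallest two-sided p 0.00216) and by Fisher's exact test per region, adjusted over all regions in at least 2 libraries. Code was tested on simulated data. Alternatives were the higher-scoring 50% of peaks, equal list lengths, other detection, merging and chromosome rules, a replicate block and each library left out.

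Named regions were the 4 per direction with the highest mean percentile among those with a Fisher p under 0.05, the 3 with the highest median percentile, the 3 widest, the 2 farthest from a region listed in all 12, and any at a promoter locus listed by the study. Regions and lists were chosen with earlier results of these data known. Gene names are the study's annotation of identical merged peaks; its own comparison columns (fold changes and p-values) were not used. Gene lists and sequences were not used because no genome of this build was used here. The gene at 1 further region is not reported here.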

Additional observations from a re-analysis of the deposited data

Results flagged for a closer look

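Control 6 stood apart from the other Control libraries in the score rank of its peaks: the median percentile of its peaks in the 10966 regions was 37.5, whereas the other 5 lay between 25.1 and 29.04. Its gap to the nearest of them exceeded the Dixon limit for 6 samples. Of 18 groups of 6 examined, 1 was marked in this way, and chance marks about 1 in 20. Control 6 also had the longest Control list, with 73110 peaks. Without it the Ethanol minus Control difference in this measure was 6.35 (exact permutation p = 0.136) instead of 4.61.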

How the results depend on the processing

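Of 42 values recomputed over 12 libraries under alternatives set at the start, 37 were rated the same. For differences and correlations this meant the same direction and side of 0.05, and for counts a size within a set fold limit. Some counts could not move, such as unadjusted calls when only the set of tested regions changed. The 37 therefore overstates stability. No adjusted call appeared in any setting run, and the smallest p that these library numbers allow left little room for one. With the higher-scoring 50% of peaks, merged anew, 5172 regions met the rule and 27 reached an unadjusted Fisher p under 0.05 (20 Ethanol, 7 Control). Calls over all tested regions were counted only in the main analysis, so call counts in this section have no such share beside them. At equal list length (50370 peaks), the score difference became -0.393 (exact permutation p = 0.933) and the Jaccard difference 0.00408 (exact permutation p = 0.182).

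The replicate block (same-numbered libraries as pairs) left 14 unadjusted calls, 11 toward Ethanol. A sign test on 6 pairs falls under 0.05 only if all 6 differ one way. Only regions split 6 to 0 could thus be called, so this count was fixed in advance. The block gave sign-flip exact p of 0.438 for the share, 0.312 for the length and 0.125 for the score, and changed no other call. Same-numbered libraries deviated together by correlations of -0.0528 to 0.0923, with 0 of 6 over 0.1, so the numbers were not treated as pairs.

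Of 26 such values added after seeing the data, 18 were rated the same by these rules. Ties at the last kept score were first taken in file order, which favours the first chromosomes, and then broken at random. File order gave 5149 regions and 25 calls for the 50% lists and, at equal length, a score difference of -0.393 and a Jaccard difference of 0.00337. Ranking scores anew within the equal-length lists, also tried after the first value was seen, gave a score difference of -3.69 (exact permutation p = 0.0390), opposite in sign to 4.61 and below 0.05 unadjusted. The score comparison therefore depends on how ranks are set, and the cause was not tested. For the 10966 regions read in shortened lists, the Jaccard difference was 0.00223 (50% lists, 13 calls) and 0.00217 (equal length). In the shorter lists alone the share difference was -1.40.

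Leaving out each library, the share difference ranged from -0.0419 (without Ethanol 6) to 9.63, the length from 132 to 2107 kb, the score from 2.77 to 6.35, unadjusted calls from 110 to 222, the Jaccard difference from -0.0101 to 0.0115, and r from 0.985 to 0.993. Presence of a peak depends on an unknown depth, so a missing peak does not show closed chromatin.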
